A study of Mus musculus with 24 samples.

Results

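The data compared 2 classes of inhibitory neuron in the ventral hippocampus of adult male mice, named Inh-MGE and Inh-CGE after the medial and the caudal ganglionic eminence of the embryonic brain. Single-nucleus RNA sequencing (snRNA-seq) and single-nucleus ATAC sequencing (snATAC-seq, which counts fragments of open chromatin in called peaks) were each carried out on 4 libraries, 2 from C57BL/6J (B6) and 2 from DBA/2J (D2, labelled DBA) mice of 10 to 16 weeks, with about 2 animals pooled in a library and no treatment or transgene given in the labels. The counts of all nuclei of a class in a library had been summed, so each library gave an Inh-MGE and an Inh-CGE sum from the same pool of nuclei, and the comparison was made within libraries, as 4 pairs. Members were the features with a count in both strains, which were 21266 of 33902 gene symbols and 297413 of 300819 peaks.

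Cortical and hippocampal interneurons are born outside the structures in which they settle. Progenitors of the medial ganglionic eminence express Nkx2-1, and their descendants carry the LIM homeodomain factor Lhx6 together with Sox6 and Satb1 and mature into somatostatin (Sst) and parvalbumin (Pvalb) cells, which contact the dendrites and the cell bodies of pyramidal neurons. Progenitors of the caudal eminence express Prox1, Nr2f2 (COUP-TFII) and Sp8, and give rise to cells with vasoactive intestinal peptide (Vip), with cholecystokinin (Cck) and the cannabinoid receptor Cnr1, and with the ionotropic serotonin receptor Htr3a. Adarb2 is an RNA-binding relative of the editing deaminases that is widely used as a marker of the caudal class.

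Inh-MGE held 309 to 490 nuclei and 2851256 to 4074254 counts per library in snRNA-seq, and Inh-CGE held 210 to 273 nuclei and 1806953 to 2253504 counts. In snATAC-seq the sums were 4633977 to 7437300 counts over 304 to 632 nuclei for Inh-MGE and 2044488 to 4275951 counts over 113 to 363 nuclei for Inh-CGE. The Inh-MGE sums were thus the deeper ones in every library, and a low transcript or peak was measured with more counting error in Inh-CGE. Levels are given as CPM, counts scaled to a fixed total over the tested features after TMM normalization, always in the order B6 library 2, B6 library 3, D2 library 2 and D2 library 3. A difference is Inh-MGE minus Inh-CGE on the log2 scale, positive where Inh-MGE was higher. Its standard error (SE) is the size of the difference over the square root of the F statistic of the quasi-likelihood test of edgeR. That test shares information on spread across features, so the SE is not the scatter of the 4 pairs and can be smaller than it. A feature passed the test at an adjusted p under 0.05. An exact permutation of the signs of 4 pairs cannot go below p = 0.125, so the p-values come from this model fitted across all features.

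The markers of each class were higher in that class. The authors had named the clusters from marker genes, so this is no independent check of the labels. Lhx6 was counted at 58.7, 63.1, 83.2 and 68.3 CPM in Inh-MGE and 0, 1.15, 0 and 0.566 CPM in Inh-CGE. Adarb2 was counted at 24.2, 39.7, 9.96 and 13.2 CPM in Inh-MGE and 12213, 13407, 12906 and 11921 CPM in Inh-CGE. The groups did not overlap for either gene. Among transcripts that passed the test, the groups did not overlap for 67.9% of those higher in Inh-MGE and 66.0% of those higher in Inh-CGE. Of 7 markers of Inh-MGE, 6 were tested and all 6 were higher in Inh-MGE, and all 9 markers of Inh-CGE were higher in Inh-CGE. The seventh, Nkx2-1, a factor of the embryonic progenitor, was not above 1.04 CPM in any sum. Markers of other cells were also counted in both classes. Those of excitatory neurons summed to 256 to 323 CPM in Inh-MGE and 314 to 366 CPM in Inh-CGE, most of it from the kinase gene Camk2a, which was at 247, 277, 248 and 222 CPM in Inh-MGE and 318, 319, 288 and 274 CPM in Inh-CGE and was higher in Inh-CGE (log2 difference -0.27 ± 0.06). The glutamate transporter Slc17a7 of excitatory neurons stood at 20.4, 18.96, 16.2 and 13.6 CPM in Inh-MGE and 21.2, 18.9, 14.5 and 15.8 CPM in Inh-CGE (adjusted p = 0.954, edgeR). Of 4 tested markers of CA1 and CA3 pyramidal neurons, Mpped1 was higher in Inh-MGE (0.79 ± 0.09) and Nectin3 in Inh-CGE (-0.59 ± 0.12). The markers of oligodendrocyte precursors summed to at most 4.89 CPM in Inh-MGE and 6.57 CPM in Inh-CGE. The myelin gene Mog was higher in Inh-CGE (log2 difference -1.14 ± 0.22), as were the astrocyte transporter Slc1a2 (-1.27 ± 0.08) and the microglial receptor P2ry12 (-0.76 ± 0.07), while Mbp, Mobp, Gja1, Slc1a3 and Cx3cr1, also markers of these glia, did not pass the test, at log2 differences from -0.18 to 0.23. The marker lists summed to 72.7 to 86.3 CPM in Inh-MGE and 131 to 187 CPM in Inh-CGE for astrocytes, 76.3 to 107 and 64.7 to 136 CPM for oligodendrocytes, and 118 to 165 and 197 to 237 CPM for microglia. The 4 tested of 5 markers of neurogliaform (Lamp5) interneurons, which the tables hold as a class of their own, were all higher in Inh-CGE, with sums of 236 to 311 CPM in Inh-MGE and 607 to 811 CPM in Inh-CGE. The part of reads from other cells in the differences given here was not tested.

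**Figure D1:**
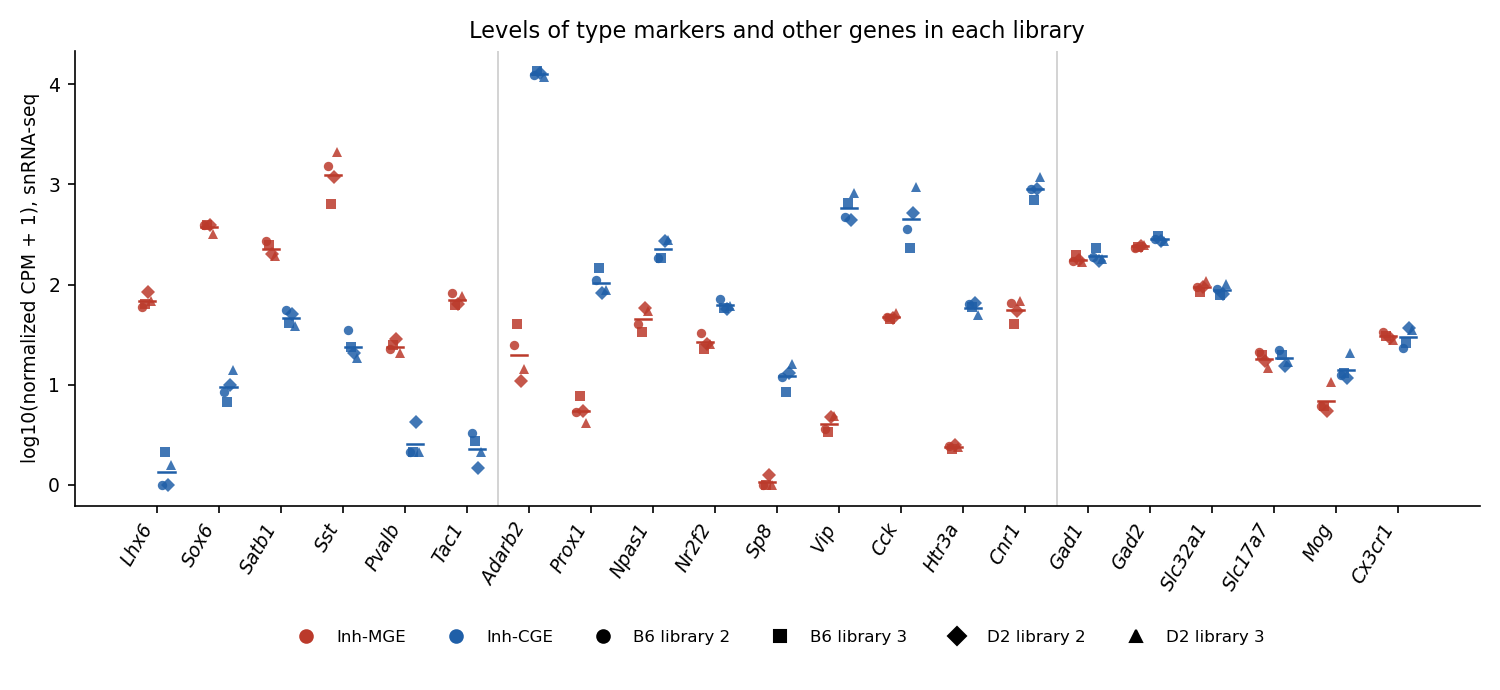
Levels of 21 transcripts in each snRNA-seq sum, as log10 of normalized CPM plus 1 (vertical axis), with Inh-MGE in red, Inh-CGE in blue, a symbol for each library and a line at the mean of the 4 log values. Genes on the left stood higher in Inh-MGE, those in the middle higher in Inh-CGE, and on the right Gad1, Slc32a1, Slc17a7 and Cx3cr1 did not pass the test while Gad2 and Mog were higher in Inh-CGE.

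Of 12708 transcripts tested, 1764 were higher in Inh-MGE (13.9%) and 1681 were higher in Inh-CGE (13.2%). The counts given for gene lists below are to be read beside these shares. The nuclei had been placed in classes by clustering on these same transcripts, so the p-values are not independent evidence that the classes exist. The p-values set each difference against its variation from pair to pair, with information on spread shared across features. The median log2 difference over all tested transcripts was -0.00077. Most of the called differences were modest, with a median size of 0.71 in transcripts higher in Inh-MGE and 0.68 in those higher in Inh-CGE, and 192 and 180 transcripts respectively differed by at least 2 on the log2 scale. The direction was the same in all 4 libraries for 1688 of the 1764 and 1597 of the 1681. Each sum pools the subtypes of its class, so a larger share of a subtype and more RNA per nucleus cannot be told apart.

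**Figure D2:**
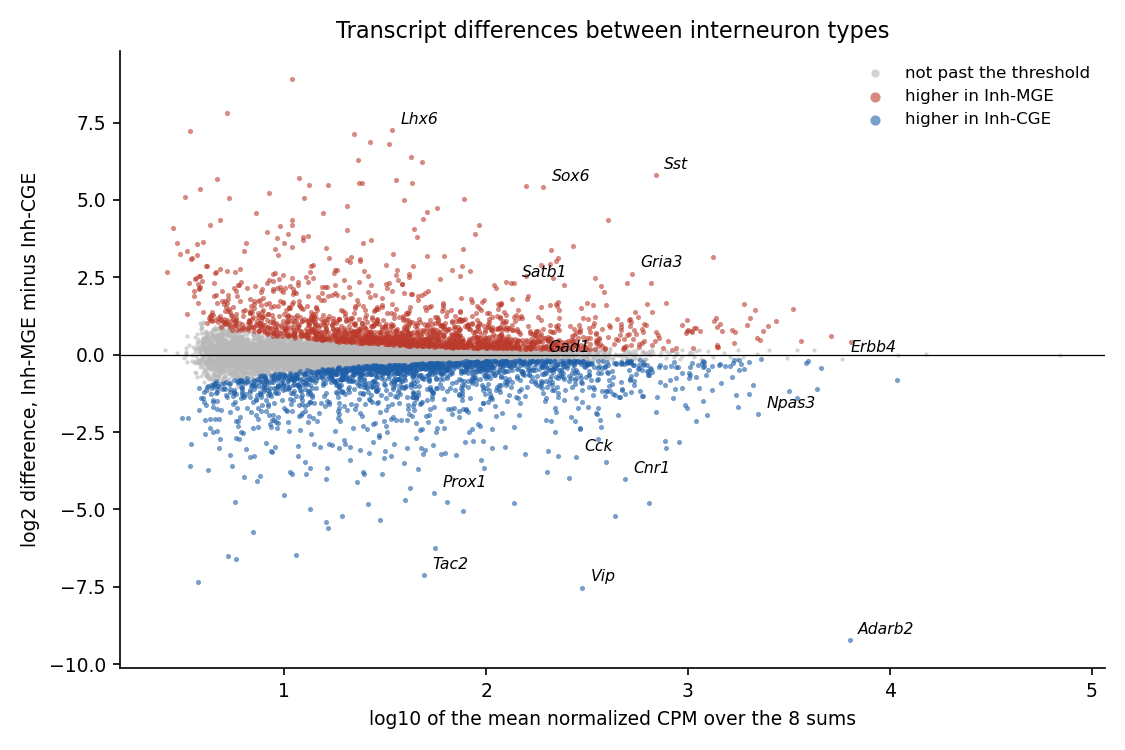
Log2 difference of each of the 12708 tested transcripts (vertical axis, Inh-MGE minus Inh-CGE) against log10 of its mean normalized CPM over the 8 sums (horizontal axis), with transcripts past the threshold in red or blue. Adarb2 at -9.21 and Vip at -7.53 mark the lower edge, Sst at 5.80 and Lhx6 lie at the top, and Gad1 and Erbb4 lie near 0.

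Transcription factors of the MGE lineage were mostly higher in the class named for it. Of the 9 factors listed for the MGE lineage, 7 were tested, 5 were higher in Inh-MGE and 1 was higher in Inh-CGE, with a median log2 difference of 2.31. Lhx6 had 3 counts in all over the 4 Inh-CGE sums, and its ratio of normalized counts was 169 (95% exact counting interval 57.8 to 822, adjusted p = 5.51e-15, edgeR). Sox6, which acts after Lhx6 in the maturation of these cells, was at 392, 396, 394 and 317 CPM in Inh-MGE and 7.44, 5.74, 8.91 and 13.02 CPM in Inh-CGE (log2 difference 5.41 ± 0.13 (SE), adjusted p = 2.62e-18, edgeR). Satb1, a chromatin organiser required in Sst cells, was at 273, 248, 203 and 191 CPM in Inh-MGE and 54.95, 40.2, 50.2 and 37.9 CPM in Inh-CGE, so that Inh-CGE kept a level of 45.8 ± 8.10 CPM (SD, n = 4) (log2 difference 2.31 ± 0.09 (SE), adjusted p = 4.43e-15, edgeR). The factor Maf differed less, by 0.52 ± 0.08. Zeb2, which is listed with the MGE lineage for its role in directing these cells to the cortex, was higher in Inh-CGE in all 4 libraries, at 739, 802, 740.4 and 702 CPM in Inh-MGE and 1049.8, 1108, 1245 and 1087 CPM in Inh-CGE (log2 difference -0.59 ± 0.06). Etv1 did not pass the test (0.49 ± 0.24, adjusted p = 0.159, edgeR). Lhx8 and Nkx2-1 were too low to be tested.

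Of the 10 factors listed for the CGE lineage, all were tested and 9 were higher in Inh-CGE, with a median log2 difference of -2.09. Prox1, which is required for the identity of caudal interneurons, was at 4.31, 6.75, 4.48 and 3.13 CPM in Inh-MGE and 109, 145, 82.1 and 87.7 CPM in Inh-CGE (log2 difference -4.47 ± 0.13 (SE), adjusted p = 3.63e-17, edgeR). Sp8 was close to absent from Inh-MGE, with 1 count over the 4 sums, against 10.9, 7.46, 12.2 and 15.3 CPM in Inh-CGE, a ratio of 164 (95% exact counting interval 28.6 to 6534). The PAS-domain repressor Npas1 was at 39.4, 32.2, 57.5 and 53.3 CPM in Inh-MGE and 183, 184, 269 and 276 CPM in Inh-CGE (log2 difference -2.32 ± 0.08 (SE), adjusted p = 3.06e-16, edgeR), and its relative Npas3 differed by -1.92 ± 0.06. The nuclear factor I genes were also higher in Inh-CGE, with log2 differences of -2.39 ± 0.07 for Nfib and -2.05 ± 0.17 for Nfix, as was the zinc finger gene Zbtb16 (-2.12 ± 0.10). The COUP-TF receptors were not alike. Nr2f2 was at 32.2, 21.8, 24.7 and 24.4 CPM in Inh-MGE and 71.5, 56.8, 55.8 and 60.6 CPM in Inh-CGE, with no overlap between the classes (log2 difference -1.25 ± 0.11 (SE), adjusted p = 2.43e-09, edgeR), while Nr2f1 was at 50.3, 40.5, 60.3 and 69.7 CPM in Inh-MGE and 42.4, 49.4, 62.9 and 71.3 CPM in Inh-CGE and did not pass the test (log2 difference -0.04 ± 0.10 (SE), adjusted p = 0.844, edgeR). The helix-loop-helix gene Id2, which also marks neurogliaform cells, differed by -1.46 ± 0.31 at low levels.

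Factors that both lineages use were not equally abundant either. Of 8 listed, 2 were higher in Inh-MGE and 5 in Inh-CGE. The homeobox genes Dlx1, Dlx2, Dlx5 and Dlx6, which switch on GABAergic genes in the ganglionic eminences, were all higher in Inh-CGE, by log2 differences from -1.23 to -0.86. Dlx1 stood at 36.5, 37.4, 24.4 and 33.1 CPM in Inh-MGE and 81.3, 82.1, 68.02 and 74.1 CPM in Inh-CGE. Dlx6os1, the RNA transcribed antisense to Dlx6, went the same way (-1.96 ± 0.07), and whether reads were assigned by strand is not given in the sources used here, so its reads cannot be set apart from those of Dlx6. Sp9 was higher in Inh-MGE (1.45 ± 0.20), and Tshz1 was higher in Inh-CGE (-1.04 ± 0.13). Tshz2 did not pass the test (-0.21 ± 0.19).

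Neuropeptide genes differed widely, in both directions. Of 18 listed, 12 were tested, 4 were higher in Inh-MGE and 5 in Inh-CGE. Sst, whose peptide damps release and excitability through Gi-coupled receptors, was at 1537, 642, 1176 and 2092 CPM in Inh-MGE and 34.3, 22.95, 19.7 and 17.5 CPM in Inh-CGE (log2 difference 5.80 ± 0.16 (SE), adjusted p = 1.21e-17, edgeR). The Inh-MGE libraries spread over a wide range for Sst, with B6 library 3 the lowest. Npy followed the same order of libraries, at 179, 94.8, 148 and 301 CPM in Inh-MGE and 35.5, 23.5, 31.4 and 61.7 CPM in Inh-CGE, and the somatostatin relative Cort was at 78.8, 40.3, 23.7 and 47.4 CPM in Inh-MGE and 1.72, 1.15, 0.469 and 0.566 CPM in Inh-CGE (log2 differences 2.24 ± 0.09 and 5.54 ± 0.25). Tac1, the precursor of substance P, was at 81.1, 61.05, 63.01 and 75.6 CPM in Inh-MGE and 2.29, 1.72, 0.469 and 1.13 CPM in Inh-CGE (log2 difference 5.64 ± 0.21 (SE), adjusted p = 2.76e-15, edgeR). On the other side stood Vip, at 2.59, 2.34, 3.74 and 3.83 CPM in Inh-MGE and 476, 644, 443 and 818 CPM in Inh-CGE (log2 difference -7.53 ± 0.12 (SE), adjusted p = 2.22e-21, edgeR). Tac2, the precursor of neurokinin B, was at 1.15, 0.52, 0.498 and 0.348 CPM in Inh-MGE and 54.95, 63.7, 121 and 151 CPM in Inh-CGE (log2 difference -7.13 ± 0.22 (SE), adjusted p = 8.07e-17, edgeR). In Inh-CGE the 2 D2 libraries lay above both B6 libraries for Tac2 and for Cck, which was at 46.9, 43.9, 45.8 and 50.8 CPM in Inh-MGE and 357, 232, 520.2 and 930.4 CPM in Inh-CGE. Penk, the precursor of the enkephalins, was higher in Inh-CGE as well (-3.34 ± 0.18). The precursor of nociceptin, Pnoc, differed less (-0.55 ± 0.13). Crh, Grp and Pthlh did not pass the test, and Pdyn, Cartpt, Nmb, Adcyap1, Trh and Nts were too low to be tested.

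The classical calcium-binding proteins marked both classes. Pvalb was at 21.6, 23.6, 27.6 and 19.5 CPM in Inh-MGE and 1.14, 1.15, 3.28 and 1.13 CPM in Inh-CGE (log2 difference 3.70 ± 0.27 (SE), adjusted p = 2.09e-10, edgeR), and the calretinin gene Calb2 was at 1.44, 1.82, 2.49 and 1.39 CPM in Inh-MGE and 27.5, 32.1, 26.7 and 35.7 CPM in Inh-CGE (log2 difference -4.01 ± 0.23 (SE), adjusted p = 3.54e-12, edgeR). Calbindin (Calb1) differed less, at 71.6, 84.2, 75.7 and 87.1 CPM in Inh-MGE and 33.2, 29.3, 44.6 and 57.7 CPM in Inh-CGE (log2 difference 0.95 ± 0.12). Necab1 and Necab2, which carry EF hands, were higher in Inh-CGE (-1.72 ± 0.08 and -2.13 ± 0.19). Of the 7 listed genes tested in all, 2 were higher in Inh-MGE and 4 in Inh-CGE.

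Genes that receive peptide and modulator signals were divided between the classes. Of 21 listed peptide receptors and binding proteins, 12 were tested, with 4 higher in each class. Crhbp, which binds corticotropin-releasing hormone outside the cell, was at 112, 63.4, 90.2 and 116 CPM in Inh-MGE and 1.72, 0, 1.88 and 1.13 CPM in Inh-CGE (log2 difference 6.23 ± 0.21 (SE), adjusted p = 4.43e-16, edgeR). The delta opioid receptor gene Oprd1 was at 75.3, 76.1, 69.5 and 64.8 CPM in Inh-MGE and 25.8, 13.2, 24.4 and 19.8 CPM in Inh-CGE (log2 difference 1.77 ± 0.13), the mu receptor gene Oprm1 differed by 0.55 ± 0.09, and the cholecystokinin receptor gene Cckbr by 1.81 ± 0.36. The neuropeptide Y receptors ran the other way: Npy1r was at 4.31, 2.86, 1.25 and 1.39 CPM in Inh-MGE and 44.1, 49.9, 37.1 and 43.01 CPM in Inh-CGE, Npy5r differed by -3.65 ± 0.24 and Npy2r by -2.13 ± 0.23, so that the peptide Npy was higher in Inh-MGE and 3 of its receptors in Inh-CGE. The gastrin-releasing peptide receptor Grpr was also higher in Inh-CGE (-2.47 ± 0.21). The somatostatin receptors Sstr1 and Sstr2 did not pass the test.

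Among 13 serotonin receptor genes, 8 were tested and 3 were higher in each class (13.9% and 13.2% of all tested transcripts). Htr3a, the subunit of the serotonin-gated cation channel, was at 1.44, 1.30, 1.49 and 1.39 CPM in Inh-MGE and 62.4, 58.5, 63.8 and 48.1 CPM in Inh-CGE (log2 difference -5.34 ± 0.19 (SE), adjusted p = 7.98e-16, edgeR). Htr2c, coupled to Gq, was at 35.4, 28.3, 29.6 and 13.6 CPM in Inh-MGE and 453, 311, 433 and 302 CPM in Inh-CGE (log2 difference -3.80 ± 0.10 (SE), adjusted p = 8.13e-18, edgeR), and Htr1b was low and higher in Inh-CGE (-2.07 ± 0.36). Htr1f was at 210.5, 230.2, 187 and 148 CPM in Inh-MGE and 90.4, 60.3, 104 and 75.3 CPM in Inh-CGE, Htr4 at 77.6, 82.6, 76.7 and 74.5 CPM in Inh-MGE and 54.95, 57.96, 36.1 and 41.3 CPM in Inh-CGE, and both were higher in Inh-MGE (1.22 ± 0.11 and 0.72 ± 0.10). Of 12 acetylcholine receptor genes 5 were tested, of which Chrna7, the subunit of the homomeric nicotinic channel, was higher in Inh-CGE (72.7, 49.4, 44.1 and 45.6 against 141, 164, 137 and 159 CPM, log2 difference -1.51 ± 0.11), with the Gq-coupled muscarinic receptors Chrm1 (-0.83 ± 0.15) and Chrm3 (-0.87 ± 0.07). Chrm2, often cited in somatostatin cells, did not pass the test (-0.03 ± 0.11). The cannabinoid receptor Cnr1 was at 63.8, 39.5, 53.3 and 68.3 CPM in Inh-MGE and 889.5, 701, 904 and 1181 CPM in Inh-CGE (log2 difference -4.03 ± 0.08 (SE), adjusted p = 6.12e-20, edgeR). Of the 7 tested genes of endocannabinoid signalling, 1 was higher in Inh-CGE (13.2% of all tested transcripts), 2 in Inh-MGE (13.9%) and 4 did not pass the test. Those higher in Inh-MGE were Dagla, which makes 2-arachidonoylglycerol (1.11 ± 0.15), and Abhd6 (0.30 ± 0.09). The call of Abhd6 was lost when 1 library was left out, at 0.27 without B6 library 2 (adjusted p = 0.0519) and 0.28 without D2 library 2 (adjusted p = 0.0559), edgeR.

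**Figure D3:**
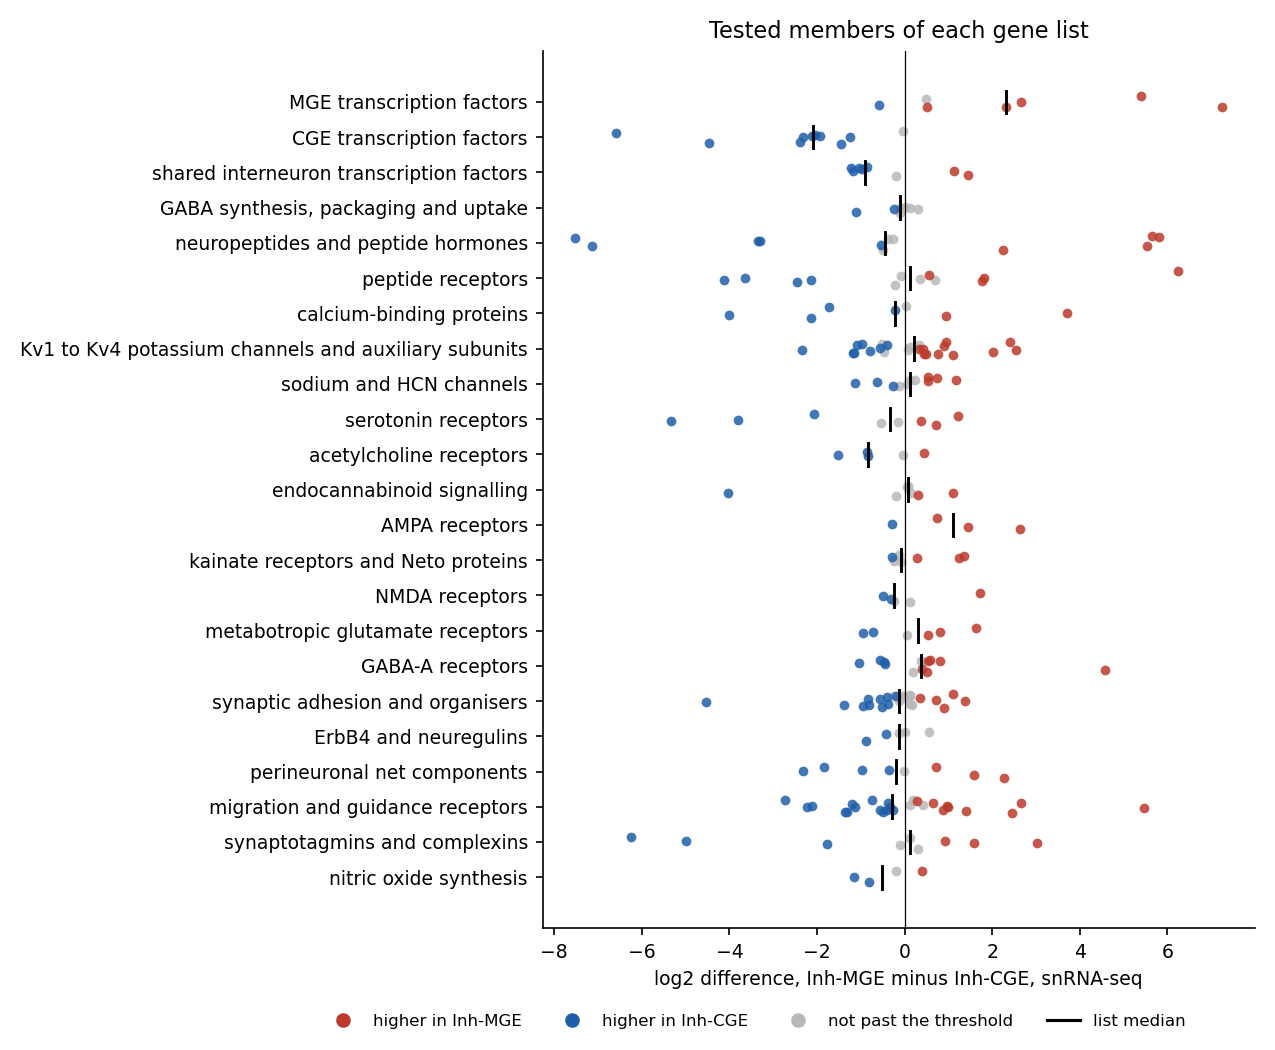
Log2 differences (horizontal axis, Inh-MGE minus Inh-CGE) of the tested members of 23 gene lists, 1 point per gene, with members past the threshold in red or blue and a black line at the list median. The factors of the MGE lineage have a median of 2.31 and those of the CGE lineage one of -2.09, while neuropeptides reach out to 5.80 and -7.53 about a median of -0.44.

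Ionotropic glutamate receptors differed by subunit. All 4 AMPA receptor genes passed the test. Gria3 was at 949, 976, 878 and 823 CPM in Inh-MGE and 156, 154, 138 and 139 CPM in Inh-CGE (log2 difference 2.62 ± 0.07 (SE), adjusted p = 5.66e-18, edgeR), Gria1 was at 2996, 3474, 3079.7 and 3041 CPM in Inh-MGE and 1307, 1223, 1102 and 992 CPM in Inh-CGE (1.45 ± 0.07) and Gria4 differed by 0.75 ± 0.06. Gria2, the subunit whose edited form keeps the channel closed to calcium, was the exception and was higher in Inh-CGE, at 1286, 1397, 1312 and 1211 CPM in Inh-MGE and 1589, 1579.9, 1710.4 and 1489.6 CPM in Inh-CGE (-0.29 ± 0.06). Among the NMDA receptor genes Grin3a was higher in Inh-MGE, at 343, 377, 319.8 and 360.1 CPM in Inh-MGE and 99.03, 113, 105 and 110.4 CPM in Inh-CGE (1.71 ± 0.07), Grin2a (-0.32 ± 0.07) and Grin2b (-0.50 ± 0.06) were higher in Inh-CGE, and the obligatory subunit Grin1 did not pass the test (0.13 ± 0.07). Of 7 kainate receptor and Neto genes, Grik3 (1.24 ± 0.08), Neto2 (1.36 ± 0.08) and Neto1 (0.29 ± 0.08) were higher in Inh-MGE and Grik2 in Inh-CGE (-0.28 ± 0.06). The metabotropic receptor Grm5 was at 2971, 3166, 2674 and 2641 CPM in Inh-MGE and 1148, 1026, 789 and 761 CPM in Inh-CGE (log2 difference 1.64 ± 0.07 (SE), adjusted p = 2.07e-14, edgeR). Grm3 was also higher in Inh-MGE (0.80 ± 0.07), and Grm4 and Grm8 were higher in Inh-CGE (-0.95 ± 0.20 and -0.72 ± 0.10). The call of Neto1 was lost when 1 library was left out, at 0.19 without B6 library 3 (adjusted p = 0.0733), edgeR.

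Of 7 genes of GABA synthesis, packaging and uptake, 5 did not pass the test and 2 were higher in Inh-CGE. Gad1 was at 172, 197, 173 and 166 CPM in Inh-MGE and 189, 231, 171 and 178 CPM in Inh-CGE, and neither it (log2 difference -0.11 ± 0.07 (SE), adjusted p = 0.247, edgeR) nor the vesicular transporter Slc32a1 (0.13 ± 0.08) or Abat, which degrades GABA (-0.00 ± 0.07), passed the test. Gad2 was slightly higher in Inh-CGE (-0.25 ± 0.07), and so, by more, was the uptake transporter Slc6a11 (-1.11 ± 0.15), which is best known from astrocytes. Of the 15 GABA-A receptor genes 12 were tested, with 6 higher in Inh-MGE (13.9% of all tested transcripts) and 4 in Inh-CGE (13.2%). The delta subunit gene Gabrd, which takes part in tonic inhibition outside synapses, was at 33.6, 30.1, 31.9 and 23.7 CPM in Inh-MGE and 1.14, 2.87, 0.469 and 0.566 CPM in Inh-CGE (log2 difference 4.56 ± 0.29 (SE), adjusted p = 1.99e-11, edgeR). Gabrg3 (0.81 ± 0.08), Gabra3 (0.58 ± 0.09), Gabra4 (0.53 ± 0.12) and Gabrb2 (0.39 ± 0.07) were higher in Inh-MGE, and Gabra2 (-1.04 ± 0.07), Gabra5 (-0.56 ± 0.14) and Gabrb1 (-0.45 ± 0.06) were higher in Inh-CGE. The call of Gad2 was lost when 1 library was left out, at -0.21 without B6 library 2 (adjusted p = 0.0631) and -0.20 without B6 library 3 (adjusted p = 0.0634), edgeR. The call of Gabra5 was lost when 1 library was left out, at -0.39 without B6 library 2 (adjusted p = 0.069), edgeR.

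Channels that set the speed of firing leaned to Inh-MGE by count and not by much in size. Of 24 tested genes of the Kv1 to Kv4 channels and their partners, 11 were higher in Inh-MGE (13.9% of all tested transcripts) and 8 in Inh-CGE (13.2%). Their median log2 difference was 0.22. The Kv3 gene Kcnc2, whose channel allows brief action potentials, was at 2859.6, 3175, 2318 and 1989 CPM in Inh-MGE and 1567, 1601, 1191 and 1011 CPM in Inh-CGE (log2 difference 0.95 ± 0.06 (SE), adjusted p = 1.33e-11, edgeR), and Kcnc1 differed by 0.43 ± 0.09. The silent subunit gene Kcns3, which assembles with Kv2 channels, was at 95.7, 91.96, 28.9 and 29.6 CPM in Inh-MGE and 17.2, 16.6, 7.51 and 4.53 CPM in Inh-CGE (2.40 ± 0.14), with both B6 sums of Inh-MGE above both D2 sums. The Kv4 genes split, with Kcnd2 higher in Inh-MGE (0.76 ± 0.06) and Kcnd3 in Inh-CGE (-1.10 ± 0.07), and so did the proteins that bind them, Kcnip2 (2.55 ± 0.16) and Dpp10 (0.91 ± 0.11) against Kcnip1 (-1.18 ± 0.07) and Kcnip4 (-0.97 ± 0.08). Kcna1, the subunit of Kv1 channels at axon initial segments, was at 94.9, 98.7, 101 and 105 CPM in Inh-MGE and 38.9, 46.5, 46.4 and 54.9 CPM in Inh-CGE (1.10 ± 0.09). Among 11 tested sodium and HCN channel genes, Scn8a (0.54 ± 0.07) and Hcn2 (0.53 ± 0.09) were among those higher in Inh-MGE, and Scn3a (-1.13 ± 0.07), Scn3b (-0.63 ± 0.11) and Scn2a (-0.27 ± 0.07) were higher in Inh-CGE. Scn1a did not pass the test (-0.14 ± 0.07). The call of Scn2a was lost when 1 library was left out, at -0.19 without B6 library 3 (adjusted p = 0.0656), edgeR.

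Of 23 tested genes of synaptic adhesion, 10 were higher in Inh-CGE (13.2% of all tested transcripts) and 5 in Inh-MGE (13.9%). Their median log2 difference was -0.14. The presynaptic organiser Nrxn3 was at 8206, 8419.8, 7412 and 7128 CPM in Inh-MGE and 14130.0, 14962, 13879 and 12252 CPM in Inh-CGE (log2 difference -0.83 ± 0.06 (SE), adjusted p = 4.99e-11, edgeR), and its postsynaptic partner Nlgn1 differed by -0.51 ± 0.06. Cbln2, a secreted ligand of neurexins, was at 0.575, 0.779, 0.747 and 1.04 CPM in Inh-MGE and 16.6, 21.2, 17.4 and 21.5 CPM in Inh-CGE (-4.54 ± 0.30), while its relative Cbln4 was higher in Inh-MGE (0.73 ± 0.26). Elfn1, which sits opposite the facilitating inputs of somatostatin cells, was at 86.5, 72.2, 98.4 and 107 CPM in Inh-MGE and 55.5, 58.5, 44.6 and 37.4 CPM in Inh-CGE (0.89 ± 0.13), and Cntnap4 (1.37 ± 0.06) and Il1rapl1 (1.09 ± 0.06) were also higher in Inh-MGE. Erbb4, the neuregulin receptor of interneurons, did not pass the test (-0.13 ± 0.06), and its ligand genes Nrg1 (-0.88 ± 0.10) and Nrg3 (-0.43 ± 0.07) were higher in Inh-CGE. The call of Cbln4 was lost when 1 library was left out, at 0.75 without B6 library 2 (adjusted p = 0.0772), 0.42 without D2 library 2 (adjusted p = 0.277) and 0.61 without D2 library 3 (adjusted p = 0.232), edgeR. The call of Cntnap2 was lost when 1 library was left out, at -0.10 without B6 library 2 (adjusted p = 0.389) and -0.15 without B6 library 3 (adjusted p = 0.198), edgeR. The call of Elfn2 was lost when 1 library was left out, at -0.44 without D2 library 3 (adjusted p = 0.0548), edgeR.

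Of 26 tested genes of migration and axon guidance, 9 were higher in Inh-MGE (13.9% of all tested transcripts) and 14 in Inh-CGE (13.2%). Slit2, a repellent for axons that carry Robo receptors, was at 307, 369, 334 and 226 CPM in Inh-MGE and 8.59, 7.46, 7.97 and 3.96 CPM in Inh-CGE (log2 difference 5.45 ± 0.12 (SE), adjusted p = 2.62e-19, edgeR). Slit3 (1.39 ± 0.09), the chemokine receptor gene Ackr3 (2.65 ± 0.29) and Sema3a (2.46 ± 0.27) were on the same side. Slit1 (-1.32 ± 0.10), the netrin gene Ntn1 (-2.73 ± 0.33) and its receptor Dcc (-0.75 ± 0.08), the semaphorin genes Sema3c (-2.11 ± 0.19) and Sema3e (-2.23 ± 0.20) and their receptors Nrp1 (-1.13 ± 0.10) and Nrp2 (-1.36 ± 0.07) were higher in Inh-CGE. Of the matrix genes of perineuronal nets, which enwrap parvalbumin cells, Bcan (2.27 ± 0.14), Hapln4 (1.59 ± 0.28) and Tnr (0.71 ± 0.07) were higher in Inh-MGE, and Ptprz1 (-2.32 ± 0.08), Vcan (-1.83 ± 0.24), Hapln1 (-0.98 ± 0.18) and Ncan (-0.37 ± 0.13) in Inh-CGE. Acan, the core proteoglycan of the nets, was too low to be tested, at 1.44, 4.16, 4.98 and 6.27 CPM in Inh-MGE and 0, 0, 0 and 0.566 CPM in Inh-CGE. Among the genes of vesicle release, the fast calcium sensor Syt2 was higher in Inh-MGE, at 30.8, 41.04, 50.3 and 47.7 CPM in Inh-MGE and 5.15, 3.44, 7.51 and 4.53 CPM in Inh-CGE (3.01 ± 0.18), as were Syt7 (1.59 ± 0.10) and Cplx1 (0.93 ± 0.12). Syt6 was at 1.15, 1.30, 0.747 and 2.79 CPM in Inh-MGE and 111, 98.1, 114 and 118 CPM in Inh-CGE (log2 difference -6.24 ± 0.18 (SE), adjusted p = 1.84e-17, edgeR), and Syt9 (-4.99 ± 0.28) and Cplx2 (-1.76 ± 0.09) were on the same side. The call of Ncan was lost when 1 library was left out, at -0.31 without B6 library 2 (adjusted p = 0.172), -0.39 without B6 library 3 (adjusted p = 0.0786), -0.43 without D2 library 2 (adjusted p = 0.0583) and -0.29 without D2 library 3 (adjusted p = 0.197), edgeR. The neuronal nitric oxide synthase gene Nos1 was higher in Inh-CGE (-1.16 ± 0.18).

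The 12 largest differences in each direction at 20 CPM or more also brought in genes outside these lists. In Inh-MGE they included Gna14, a Gq-class alpha subunit (31.3, 29.1, 56.03 and 59.6 against 0, 0.574, 0.469 and 0 CPM), the neurexin ligand Nxph2 (48.3, 58.2, 47.1 and 57.5 against 1.14, 0, 0.469 and 0 CPM), Moxd1 (log2 difference 6.79 ± 0.26), Lypd6 (5.56 ± 0.20), Rab38 and the noncoding RNAs 4930470O06Rik, Gm45025 (6.40 ± 0.21) and Gm34623 (6.28 ± 0.30). The lincRNA 4930470O06Rik, at 16.1, 23.6, 30.9 and 16.7 CPM in Inh-MGE, had no count in any Inh-CGE sum, and 3 counts over those sums would make it at least 55.3-fold higher in Inh-MGE. Gna14, Nxph2 and Rab38 had 2, 3 and 3 counts over the Inh-CGE sums, with ratios of 160.3, 129 and 57.2 and 95% exact counting intervals of 44.2 to 1327, 44.1 to 628 and 19.4 to 279. In Inh-CGE they included Cadps2, a priming factor of dense-core vesicles (39.97, 25.2, 13.7 and 12.5 against 736, 777, 952 and 917 CPM), the transporter gene Abcb5 (-5.40 ± 0.30) and the noncoding RNAs Gm12153, Gm39185 (-5.60 ± 0.31), Gm32335 (-5.20 ± 0.30) and D030068K23Rik (-5.05 ± 0.16). Gm12153 had 3 counts over the Inh-MGE sums, a ratio of 108 (36.5 to 531). Gm45025 lies antisense within Sox6 and Gm32335 over Htr3a, and Adarb2, Lhx6, Cadps2 and Syt6 overlap small annotated genes on their own strand, so the split of reads between these partners is uncertain. Gm39185 stood at 57.8, 57.4, 9.85 and 4.53 CPM in Inh-CGE, with both B6 sums above both D2 sums.

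Chromatin also differed between the classes. Of 220086 peaks tested, 21227 were more accessible in Inh-MGE (9.64%) and 18666 in Inh-CGE (8.48%), with median sizes of 1.38 and 1.41 on the log2 scale. The classes of snATAC-seq nuclei had been transferred from the snRNA-seq classes, so these p-values too are not independent evidence of the classes. Peaks between genes made up 36.6% of those higher in Inh-MGE and 41.0% of those higher in Inh-CGE, against 30.3% of all tested peaks, and peaks within 1000 bases of an annotated start made up 8.15% and 7.39%, against 10.2%. The median central GC content was 46.3% and 46.0% against 47.3%.

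The most different peaks at 5 CPM or more lay between genes, in introns or at noncoding starts, with 1 in an exon. The coordinates are of the mm10 (GRCm38) build. The peak chr8:103144287-103144665, at the start of the noncoding gene Gm45391, was at 7.05, 10.5, 7.64 and 7.57 CPM in Inh-MGE and 0, 0, 0.247 and 0 CPM in Inh-CGE. The intergenic peak chr13:99890102-99890405 lay 8235 bases from Cartpt and was at 9.03, 5.60, 4.67 and 5.20 CPM in Inh-MGE and 0, 0.477, 0 and 0 CPM in Inh-CGE. The intergenic peak chr2:133378412-133378866, nearest to Bmp2 at 173520 bases, was at 5.29, 9.22, 11.9 and 11.7 CPM in Inh-MGE and 0.845, 0, 0 and 0 CPM in Inh-CGE. On the other side, the intergenic peak chr1:73341955-73342154, nearest to Tnp1, was at 0, 0, 0 and 0 CPM in Inh-MGE and 6.76, 6.68, 6.66 and 3.05 CPM in Inh-CGE, and the intergenic peak chr16:85595654-85596017, 42438 bases from Cyyr1, was at 0, 0, 0.283 and 0.158 CPM in Inh-MGE and 4.22, 4.77, 6.41 and 5.85 CPM in Inh-CGE. None of the 5 overlapped between the classes, but they had been picked for large differences in the same direction in all 4 libraries. Of all peaks that passed the test, 79.6% of those higher in Inh-MGE and 71.0% of those higher in Inh-CGE did not overlap. The log2 differences of the 10 peaks named by this rule ran from 5.65 to 6.21 in Inh-MGE and from -7.69 to -4.81 in Inh-CGE, with adjusted p of at most 2.77e-17 (edgeR). Where a class is at or near 0 counts, as here, the fitted difference depends on the prior count and is no bound.

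The lineage genes were covered by peaks that mostly went the same way as their transcripts. The authors had given snATAC-seq nuclei their class by matching counts over genes and the 2 kb before them to transcripts. Agreement of the peaks over a gene with its transcript is thus in part built in. All 7 peaks over Lhx6 (chr2:36081953-36105408) were higher in Inh-MGE, and the one at its start was at 36.8, 38.3, 45.8 and 43.05 CPM in Inh-MGE and 5.07, 10.01, 12.1 and 11.7 CPM in Inh-CGE (log2 difference 2.03 ± 0.12). Over Sox6, 25 of 37 tested peaks were higher in Inh-MGE and 1 in Inh-CGE, and over Satb1 the counts were 14 of 17 and 0. The single peak of Sst was at 13.9, 13.7, 17.3 and 16.9 CPM in Inh-MGE and 3.38, 1.43, 3.45 and 4.33 CPM in Inh-CGE (2.24 ± 0.21). Over Adarb2 (chr13:8202866-8768747), 88 of 91 tested peaks were higher in Inh-CGE, with a median log2 difference of -2.74 over the 91. Prox1 had 9 of 10 peaks higher in Inh-CGE, Sp8 2 of 2, Npas1 3 of 5, Nfib 31 of 76 and Nfix 11 of 24. The peak at the start of Vip was at 0.440, 0.181, 0.141 and 0.315 CPM in Inh-MGE and 3.80, 3.81, 4.93 and 2.55 CPM in Inh-CGE (-3.74 ± 0.52). Other factors had few peaks over them. No peak of Nr2f1 (6 tested), Dlx2 (2), Dlx5 (1) or Dlx6 (3) passed the test, and 1 of 5 peaks of Nr2f2 and 1 of 2 of Dlx1 did. Of all tested peaks, 9.64% were higher in Inh-MGE and 8.48% in Inh-CGE, and counts this small cannot be set apart from those shares. The lack of a called peak over Dlx2, Dlx5 and Dlx6 is therefore no result about these genes.

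**Figure D4:**
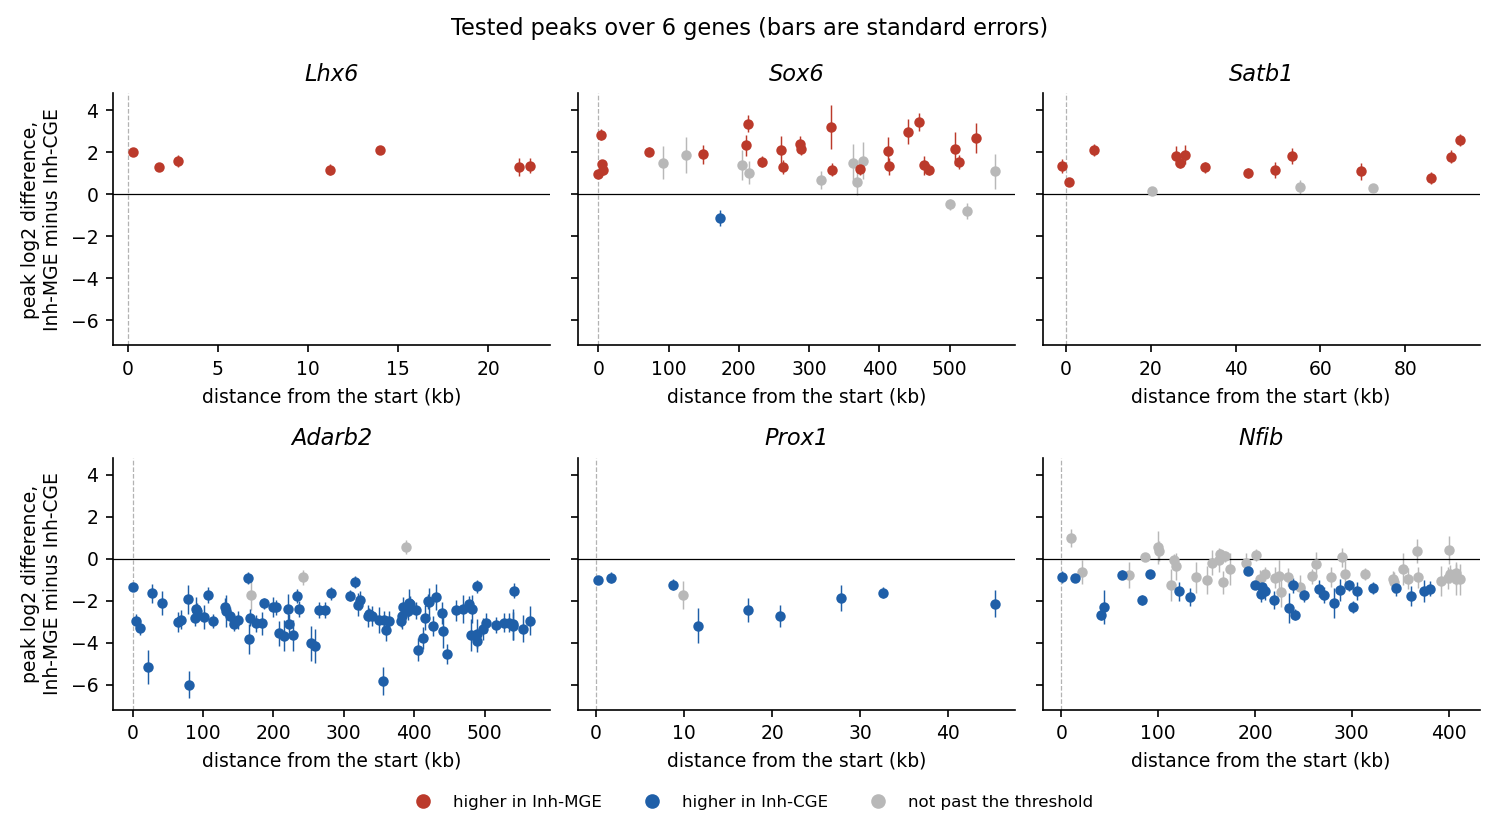
Log2 difference (vertical axis, Inh-MGE minus Inh-CGE, bars are standard errors) of each tested peak against its distance from the gene's start in kb (horizontal axis) for Lhx6, Sox6, Satb1, Adarb2, Prox1 and Nfib. The called peaks of Lhx6 and Satb1 all lie above 0, 25 of the 26 of Sox6 do, and those of Adarb2, Prox1 and Nfib all lie below 0.

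The sequences under the peaks also differed in the short motifs they held. The letters TGACTCA, the site of AP-1 factors, were present on either strand of the central 300 bases in 18.4% of peaks higher in Inh-MGE, in 5.92% of those higher in Inh-CGE and in 9.39% of all tested peaks. The E-box CAGCTG was in 32.2%, 24.7% and 22.3%, and the E-box CAGATG in 35.8%, 30.6% and 30.5%, in the same order of sets. The SOX site ACAATG ran the other way, with 12.1% of peaks higher in Inh-MGE, 23.02% of those higher in Inh-CGE and 15.04% of all. So did ACAAAG, which SOX and TCF factors share (20.04%, 29.02% and 22.7%), and the nuclear factor I site TTGGCA (17.9%, 25.4% and 20.1%). The homeodomain core TAATTA was above its share of all peaks in both sets and highest in Inh-CGE (9.65%, 14.6% and 8.55%), as was the longer site CTAATTAG, which contains it (0.664%, 0.793% and 0.516%). The MAF site TGCTGAC was in 7.39%, 5.10% and 5.91%. Within intron and intergenic peaks alone the shares of TGACTCA were 19.5%, 6.17% and 10.2% and those of ACAATG 12.8%, 24.1% and 16.02%. The remaining motifs searched were AGGTCA (14.2%, 11.3% and 13.4%), AAAGGTCA, which contains it (1.13%, 0.938% and 1.11%), the cyclic AMP response element TGACGTCA (0.561%, 0.236% and 0.421%) and CTATTTATA, a site of MEF2 factors (0.989%, 0.654% and 0.537%). These are shares of letters and no evidence of binding.

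Sequences of a few peaks are shown to let these motifs be seen in place, on the forward strand of GRCm38 (RefSeq GRCm38.p6), in lower case with any of the 13 motifs in capitals on either strand. They are the central 200 bases of peaks, in windows that touch no annotated exon, and they were chosen after their values were seen. The first 4 were higher in Inh-MGE: an intron of Sox6, 457 kb after its start, and 3 intergenic peaks, nearest to Cartpt, to Bmp2 and to Ndst3, the last of which carries TGACTCA.
Sox6, chr7:115581748-115581947: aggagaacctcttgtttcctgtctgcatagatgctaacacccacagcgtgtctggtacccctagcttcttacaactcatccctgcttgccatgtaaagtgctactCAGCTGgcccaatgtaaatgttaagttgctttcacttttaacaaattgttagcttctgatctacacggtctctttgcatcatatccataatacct
Nearest to Cartpt, chr13:99890154-99890353: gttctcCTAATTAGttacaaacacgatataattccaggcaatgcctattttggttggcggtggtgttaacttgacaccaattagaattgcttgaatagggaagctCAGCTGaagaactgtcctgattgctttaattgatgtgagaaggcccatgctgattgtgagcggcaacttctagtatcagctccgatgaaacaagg
Nearest to Bmp2, chr2:133378540-133378739: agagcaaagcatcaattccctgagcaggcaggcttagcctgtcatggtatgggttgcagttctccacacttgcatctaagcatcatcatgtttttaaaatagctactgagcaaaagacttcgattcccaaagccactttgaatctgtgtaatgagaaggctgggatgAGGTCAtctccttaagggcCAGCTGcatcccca
Nearest to Ndst3, chr3:123722608-123722807: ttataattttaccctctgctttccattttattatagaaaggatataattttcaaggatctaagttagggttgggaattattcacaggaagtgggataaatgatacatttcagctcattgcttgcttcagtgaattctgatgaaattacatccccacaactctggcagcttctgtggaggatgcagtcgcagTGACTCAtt

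The next 4 were higher in Inh-CGE: introns of Adarb2, Prox1 and Nfib, and the intergenic peak nearest to Tnp1, which had no count in any Inh-MGE sum.
Adarb2, chr13:8557881-8558080: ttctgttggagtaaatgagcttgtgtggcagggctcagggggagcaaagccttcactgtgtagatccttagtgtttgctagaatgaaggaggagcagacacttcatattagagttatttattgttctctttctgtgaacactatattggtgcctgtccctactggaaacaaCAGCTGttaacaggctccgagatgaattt
Prox1, chr1:190149668-190149867: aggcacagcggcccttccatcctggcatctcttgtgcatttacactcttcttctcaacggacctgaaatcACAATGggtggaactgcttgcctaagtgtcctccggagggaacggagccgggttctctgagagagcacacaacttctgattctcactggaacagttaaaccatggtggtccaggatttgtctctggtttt
Nfib, chr4:82464320-82464519: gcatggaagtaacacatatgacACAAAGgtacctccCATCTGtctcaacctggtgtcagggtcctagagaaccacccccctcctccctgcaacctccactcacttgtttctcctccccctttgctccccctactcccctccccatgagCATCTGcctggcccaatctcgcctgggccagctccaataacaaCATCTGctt
Nearest to Tnp1, chr1:73341955-73342154: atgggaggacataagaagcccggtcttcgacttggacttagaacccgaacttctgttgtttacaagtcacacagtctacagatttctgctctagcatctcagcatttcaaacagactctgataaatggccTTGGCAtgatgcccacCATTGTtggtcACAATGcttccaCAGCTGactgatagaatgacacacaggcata

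The Sox6 peak was at 5.73, 5.60, 4.95 and 5.83 CPM in Inh-MGE and 0, 0.477, 0.986 and 0.255 CPM in Inh-CGE (log2 difference 3.44 ± 0.44). The peak nearest to Ndst3 was at 4.18, 6.51, 6.65 and 5.99 CPM in Inh-MGE and 0.422, 0, 0 and 0.255 CPM in Inh-CGE (log2 difference 4.98 ± 0.54). The Adarb2 peak, which was near 0 in Inh-MGE, was at 0.22, 0, 0 and 0 CPM in Inh-MGE and 6.34, 1.43, 3.21 and 5.35 CPM in Inh-CGE (log2 difference -5.83 ± 0.67). The Nfib peak was at 1.76, 1.81, 1.98 and 1.42 CPM in Inh-MGE and 10.98, 8.58, 13.3 and 11.2 CPM in Inh-CGE (log2 difference -2.66 ± 0.26). In each of these the classes did not overlap, as in most peaks that passed the test.

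The promoter of Sst holds the cyclic AMP response element TGACGTCA, which was found on either strand in the 150 bases before the start in 1.36% of the 32851 starts of the RefSeq promoter table. These exact letters were not found before the start of Vip, and shorter or changed forms of the element were not searched there, so Vip is not shown to lack one. The site begins 48 bases before the RefSeq start of Sst, inside the peak given above, and is shown in capitals on the strand of the gene with its neighbouring bases. In the gene annotation used for the peaks, Sst starts at 23890958 on the minus strand, so there the site lies inside the gene.
Sst, chr16:23890874-23890903, minus strand: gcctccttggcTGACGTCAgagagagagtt

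Summed over each gene and the 2 kb before it, accessibility was higher in Inh-MGE for 2716 of 22848 genes (11.9%) and higher in Inh-CGE for 2739 (12%). Of 1693 transcripts higher in Inh-MGE with such a value, 796 had higher accessibility in Inh-MGE and 39 in Inh-CGE, and of 1611 transcripts higher in Inh-CGE, 685 had higher accessibility in Inh-CGE and 44 in Inh-MGE. With a transcript difference of at least 2 on the log2 scale, the shares rose to 139 of 182 and 144 of 171. Across 12240 genes, which are not independent replicates, the correlation of the log2 differences was r = 0.575. Part of this agreement is built in, since the snATAC-seq classes had been transferred through counts over genes and the 2 kb before them. The accessibility differences were the smaller ones, at 1.74 for Lhx6, 1.34 for Sox6, -2.34 for Adarb2 and -1.36 for Prox1, and Vip was at -3.94. Some transcripts differed strongly with little change over the gene: Gabrd at 0.12 and Npy at -0.01 did not pass the test of accessibility, and Tac2 was at -0.40. The collagen gene Col5a2 had its transcript higher in Inh-CGE (-2.40 ± 0.26) and its accessibility higher in Inh-MGE (0.44).

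**Figure D5:**
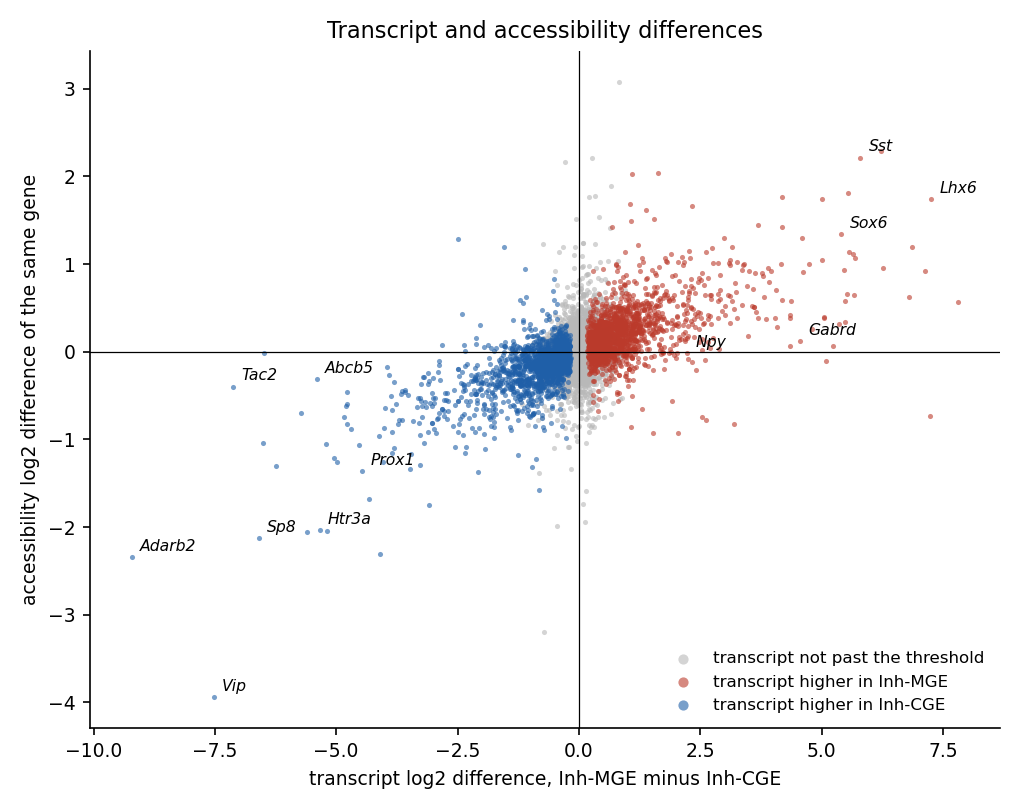
Accessibility log2 difference summed over a gene (vertical axis) against the transcript log2 difference of the same gene (horizontal axis), both Inh-MGE minus Inh-CGE, for 12240 genes. Red and blue points are transcripts past the threshold, Adarb2, Vip and Sp8 lie low on the left, Lhx6, Sox6 and Sst high on the right, and Gabrd and Npy near 0 on the vertical axis.

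Whether the classes differed in the same way in both strains was tested by an interaction term, which the choice of classes does not fix. Of 12708 transcripts, 33 passed (0.260%), with the difference larger toward Inh-MGE in D2 for 15 and toward Inh-CGE for 18, and at an unadjusted p under 0.05 there were 968. The largest was that of Ankfn1, at means of 16.0 CPM in Inh-MGE and 19.7 CPM in Inh-CGE (D2 minus B6 in the log2 difference -3.45 ± 0.38, adjusted p = 1.36e-04, edgeR). No peak of 220086 passed in edgeR or DESeq2, while 10428 in edgeR and 678 in DESeq2 lay under an unadjusted p of 0.05. For the other transcripts a difference between strains was not detectable with 2 libraries per strain, which does not show that the strains were alike. Adarb2 was an exception among the markers, since its Inh-MGE level was 0.198% and 0.297% of the Inh-CGE level in B6 and 0.0772% and 0.111% of it in D2 (D2 minus B6 in the log2 difference -1.44 ± 0.21, adjusted p = 0.0018, edgeR). Cadps2 had the same form, at 5.43% and 3.24% in B6 and 1.44% and 1.37% in D2 (D2 minus B6 in the log2 difference -1.59 ± 0.22, adjusted p = 0.00135, edgeR). Cck was called too (D2 minus B6 in the log2 difference -1.17 ± 0.20, adjusted p = 0.00572, edgeR), its Inh-CGE level being higher in D2. Angpt1, which encodes a ligand of the Tie2 receptor, was at 4.31, 10.7, 23.2 and 24.7 CPM in Inh-MGE and 32.1, 47.6, 20.2 and 23.2 CPM in Inh-CGE, so that it was higher in Inh-CGE in both B6 libraries and lay at like levels in both classes in D2 (D2 minus B6 in the log2 difference 2.55 ± 0.31, adjusted p = 2.79e-04, edgeR). Gpc3, a cell-surface proteoglycan, was at 12.1, 11.2, 17.2 and 16.4 CPM in Inh-MGE and 58.4, 63.7, 24.9 and 26.03 CPM in Inh-CGE (D2 minus B6 in the log2 difference 1.80 ± 0.27, adjusted p = 0.00237, edgeR), and Yjefn3 was at 7.76, 7.53, 4.73 and 7.31 CPM in Inh-MGE and 18.3, 14.3, 46.4 and 69.05 CPM in Inh-CGE (D2 minus B6 in the log2 difference -2.17 ± 0.36, adjusted p = 0.00467, edgeR). Dpp10 was higher in Inh-MGE in every library and more so in B6 (D2 minus B6 in the log2 difference -0.79 ± 0.10, adjusted p = 7.01e-04, edgeR). DESeq2 called only 1 interaction toward Inh-MGE in D2, so Angpt1 and Gpc3 cannot both have passed in it. Schip1 was called with counts that fell apart by strain in both classes. It had 4342 and 4811 counts in the B6 sums of Inh-MGE and 47 and 42 in those of D2, while Iqschfp, which overlaps it on the same strand, had no count in B6 and 83 and 83 in the D2 sums of Inh-MGE. The strain interaction of Cck was lost when 1 library was left out, at -0.86 without D2 library 3 (adjusted p = 0.207), edgeR. The strain interaction of Yjefn3 was lost when 1 library was left out, at -2.23 without D2 library 3 (adjusted p = 0.0841), edgeR. Without D2 library 3, 5 and 8 transcripts passed in the directions of the 15 and 18, and DESeq2 called 1 and 5.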

How the data were processed

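Nuclei of the ventral hippocampus were profiled by the authors with 10x snRNA-seq, after a sort that enriched nuclei with the neuronal antigen NeuN, and with snATAC-seq, after a sort on a DNA stain without NeuN. Per the submitters' processing notes, reads were processed with Cell Ranger 6.0.2 and Cell Ranger ATAC 2.0.0 and the nuclei with Seurat 4.0.5, and per the study's methods introns were counted, B6 reads were aligned to mm10, D2 reads to mm10 with the D2 substitutions set in, doublets were removed, peaks called per sample were merged, and cell types of snATAC-seq were transferred from snRNA-seq. The deposited values are raw counts per gene symbol or per peak, summed over the nuclei of a class in a library. The 16 methylation samples of the 24 in the series were not analysed here, and 112 other columns of the tables were not used. The columns number libraries 2 and 3 where the labels number replicates 1 and 2, so columns were placed by strain only.

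Counts were fitted with edgeR 4.0.16 (R 4.3.3, TMM, quasi-likelihood F test, Benjamini-Hochberg) with library as a block, transcripts after filterByExpr and peaks with at least 20 counts over the 8 columns. The pairing comes from the shared pool of nuclei: deviations of the 2 classes of a library correlated at r = 0.128 (B6) and 0.145 (D2) over 12114 transcripts and 0.00526 and 0.0467 over 41773 peaks. Gene accessibility was the sum of peaks over the gene and 2 kb before it. Promoter peaks lay within 1000 bases of a start. Intervals are 95% exact and cover counting error only, with a floor of 3 counts. With library as a block, p-values set the class difference against its variation from pair to pair, with information on spread shared across features. Differences in level between libraries are taken out by the block. No separate animals stood behind a pair beyond the pool. Named were the 12 transcripts at 20 CPM or more and 5 peaks at 5 CPM or more with the largest called differences in each direction, and members of the 23 lists. Also named were the 5 largest strain interactions in each direction among transcripts at 20 CPM or more, which left out Ankfn1 and Pth2r. Members and lists were chosen with earlier results of these data known. Scripts were tested on simulated data. Alternatives were DESeq2 1.42.0, RLE normalization, other count minimums, no block, features counted in 1 strain, an absolute log2 difference of at least 1, promoter peaks only and leaving out each library. Some list members are not reported here.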

Additional observations from a re-analysis of the deposited data

Results flagged for a closer look

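In 10 of 193 called transcripts 1 library lay apart from the other 3 in its own log2 difference, and chance alone gives about 1 in 20. In B6 library 3 these were Hapln4 (0.594 against 1.69 to 1.86), Kcna2 (0.929 against 0.264 to 0.286), Kcnip1 (-0.912 against -1.29 to -1.24), Scn3a (-1.27 against -1.08 to -1.06) and Vcan (-0.765 against -2.24 to -2.01). In D2 library 3 they were Cplx1 (0.450 against 1.03 to 1.14), Gabra4 (-0.190 against 0.658 to 0.777) and Htr3a (-4.68 against -5.04 to -5.01). In D2 library 2 they were Dlx1 (-1.46 against -1.15 to -1.12) and Reln (-1.26 against -1.13 to -1.11). Gabra4 was the one of these with the opposite sign in the library that stood apart.

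The interaction of class and strain, D2 minus B6 in the log2 difference, passed the edgeR test for 14 of the transcripts named or listed. Over all tested transcripts DESeq2 called 1 interaction toward Inh-MGE in D2 and 5 toward Inh-CGE, so most of the 14 did not pass in it. The shift was toward Inh-MGE in D2 for Angpt1 (2.55, from -2.43 in B6 to 0.142 in D2), Col5a2 (2.08, from -3.57 to -1.35), Gpc3 (1.80, from -2.34 to -0.587), Phf24 (1.16, from -0.0594 to 1.12) and Nwd2 (1.16, from -0.781 to 0.346). It was toward Inh-CGE in D2 for Schip1 (-2.21, from 2.25 to 0.0644), Yjefn3 (-2.17, from -1.04 to -3.16), Gm26911 (-1.60, from -2.68 to -4.14), Cadps2 (-1.59, from -4.55 to -6.10), Ell2 (-1.49, from 0.322 to -1.16), Adarb2 (-1.44, from -8.67 to -10.02), Cck (-1.17, from -2.65 to -3.84), Dpp10 (-0.791, from 1.30 to 0.511) and the sodium channel gene Scn9a (-0.574, from 0.510 to -0.0627). Without D2 library 3 the interaction no longer passed for Cck (-0.86, adjusted p = 0.207), Col5a2 (1.83, adjusted p = 0.124), Ell2 (-1.25, adjusted p = 0.159), Gm26911 (-1.67, adjusted p = 0.0974), Nwd2 (1.07, adjusted p = 0.338), Phf24 (0.84, adjusted p = 0.579), Scn9a (-0.58, adjusted p = 0.267) and Yjefn3 (-2.23, adjusted p = 0.0841), and without B6 library 3 it no longer passed for Nwd2 (0.89, adjusted p = 0.149) and Scn9a (-0.47, adjusted p = 0.192). Gm26911 lies antisense to Pdzrn3, so the split of reads between them is uncertain. Reads of the strains had been aligned to different sequences, and more symbols had counts in D2 only (7095) than in B6 only (1471). The part of either in the interaction was not tested.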

How the results depend on the processing

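More transcripts and peaks were called higher in Inh-MGE than in Inh-CGE in every alternative run. Gene accessibility, at 2716 genes higher in Inh-MGE and 2739 in Inh-CGE, turned to 2326 and 2295 without B6 library 2, 2443 and 2420 without B6 library 3 and 2114 and 2048 without D2 library 3. Of the calls counted in the lists, those of Calm2, Chrnb2, Htr2a, Kcna2, Kcnab1, Kcnc4, Plxnc1, Unc5a and Unc5b were among those also lost without at least 1 library. DESeq2 called 1032 transcripts higher in Inh-MGE and 987 in Inh-CGE, 8960 and 7591 peaks, and 1 and 5 interactions. An absolute log2 difference of at least 1 kept 559 and 554 transcripts. A minimum of 1 count gave 41 and 58 interactions, and RLE normalization 10 and 17. Promoter peaks only gave 1086 and 1207 genes. With a minimum of 10 counts 25293 and 15104 peaks were called. The minimum of 50 counts was planned as the stricter filter for transcripts and was the looser one. Leaving out 1 library gave 1541 to 1581 and 1369 to 1427 transcripts, 14778 to 18532 and 12826 to 16557 peaks, 1957 to 2443 and 1963 to 2420 genes, and 5 to 34 and 8 to 80 interactions, lowest without D2 library 3 and highest without B6 library 2. In the interaction without a library, the lone library of a strain is assumed to vary like the others. The cause of these changes was not tested.

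Without the replicate block, 1578 and 1489 transcripts, 21919 and 19622 peaks and 2642 and 2660 genes were called. Of 193 named or listed transcripts with a call, 171 passed in every alternative, 22 lost the threshold in at least 1 and 0 reversed. Low transcripts and peaks of Inh-CGE, the shallower sums, are the least precise.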
